A study of Homo sapiens with 7 samples.

Results

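H3K27ac, acetylation of lysine 27 on histone H3, was mapped in HepG2 as 95886 peaks, each 146 bp long and set on a single nucleosome position. Peaks with at most 12500 bp between them were joined into 17892 stretches. The stretches were ranked by their number of peaks, and the 300 richest, which are 1.68% of all stretches, are described here together with 1084 named loci of the expression table that lay in or within 50 kb of them. These loci are 4.9% of the 22113 named loci. The peak numbers chose the stretches, so they are given as a description and support nothing.

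HepG2 is a line grown from a human liver tumour and keeps many features of hepatocytes. The study mapped nucleosomes with micrococcal nuclease on native chromatin, mapped 5 histone marks by ChIP-Seq of crosslinked and sonicated chromatin, and measured RNA after removal of ribosomal RNA, to place each mark on single nucleosomes. The 7 samples were untreated HepG2 cultures as far as the labels tell, with 1 sample per assay. There is no control condition, and no mark has a replicate. The RNA sample has 2 value columns, and whether they are replicates is not stated. The labels name a pair of antibodies for each mark and do not say how they were combined. No P value was computed, and the exact 95% binomial intervals (Clopper-Pearson) cover counting error only. Neighbouring nucleosomes are not independent, so the intervals are too narrow for a comparison of regions.

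H3K27ac is written by the acetyltransferases p300 and CBP at active enhancers and promoters and is removed by deacetylases. H3K9ac also marks active promoters and enhancers, while H3K4me3 sits mainly at promoters and H3K27me3 and H3K9me3 are marks of repressed chromatin. Stitching neighbouring acetylated sites over a fixed gap is the usual way to find dense groups of enhancers, which in many cell types lie near genes that define the cell. In hepatocytes, such genes encode plasma proteins and liver transcription factors such as the HNF4, FOXA and ONECUT families.

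Promoters of 7 loci, all of them with a match to a motif named below, are printed so that the starts behind the results can be read. APOA2 and SEPP1 (listed in RefSeq as SELENOP) are secreted liver products among the 10 highest of the 1084 loci, VTN encodes the plasma protein vitronectin, FOXA3 and ONECUT1 encode liver transcription factors, FTL is the highest of the 1084, and EML4 stands over the third richest stretch. The sequences are the 250 bases before the RefSeq start in GRCh38.p14, 5′ to 3′ on the strand of the gene. They are at chr1:161223629-161223878 (minus) for APOA2, chr5:42811893-42812142 (minus) for SEPP1, chr17:28370308-28370557 (minus) for VTN, chr19:45864076-45864325 (plus) for FOXA3, chr15:52790337-52790586 (minus) for ONECUT1, chr19:48965059-48965308 (plus) for FTL and chr2:42169103-42169352 (plus) for EML4. Capitals mark letters that match a motif named below.
APOA2: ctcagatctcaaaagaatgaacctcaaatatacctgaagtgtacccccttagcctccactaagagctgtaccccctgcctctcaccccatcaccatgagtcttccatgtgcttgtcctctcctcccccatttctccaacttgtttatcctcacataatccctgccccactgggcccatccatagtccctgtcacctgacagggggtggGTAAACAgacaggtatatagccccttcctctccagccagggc
SEPP1: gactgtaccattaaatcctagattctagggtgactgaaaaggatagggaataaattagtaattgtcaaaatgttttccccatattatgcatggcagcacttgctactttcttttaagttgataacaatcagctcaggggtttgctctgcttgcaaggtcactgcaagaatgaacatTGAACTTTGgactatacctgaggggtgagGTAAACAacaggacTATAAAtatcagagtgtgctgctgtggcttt
VTN: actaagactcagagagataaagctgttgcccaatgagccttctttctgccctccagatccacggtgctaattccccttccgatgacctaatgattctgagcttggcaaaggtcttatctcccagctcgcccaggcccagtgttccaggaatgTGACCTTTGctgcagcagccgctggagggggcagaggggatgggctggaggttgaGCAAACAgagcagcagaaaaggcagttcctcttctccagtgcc
FOXA3: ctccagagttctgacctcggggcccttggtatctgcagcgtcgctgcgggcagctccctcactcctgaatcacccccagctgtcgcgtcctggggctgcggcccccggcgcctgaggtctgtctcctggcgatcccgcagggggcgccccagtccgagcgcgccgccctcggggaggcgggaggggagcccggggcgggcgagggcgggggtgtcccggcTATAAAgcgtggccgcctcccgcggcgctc
ONECUT1: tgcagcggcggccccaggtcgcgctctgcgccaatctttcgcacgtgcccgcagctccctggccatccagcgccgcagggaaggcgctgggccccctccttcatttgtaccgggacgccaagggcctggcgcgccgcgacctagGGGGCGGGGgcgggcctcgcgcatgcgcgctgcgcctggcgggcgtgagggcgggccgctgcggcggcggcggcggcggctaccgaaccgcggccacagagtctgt
FTL: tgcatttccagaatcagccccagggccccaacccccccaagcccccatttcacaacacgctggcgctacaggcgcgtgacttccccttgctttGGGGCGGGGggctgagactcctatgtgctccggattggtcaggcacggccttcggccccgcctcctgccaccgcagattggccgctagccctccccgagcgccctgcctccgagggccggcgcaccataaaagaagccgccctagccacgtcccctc
EML4: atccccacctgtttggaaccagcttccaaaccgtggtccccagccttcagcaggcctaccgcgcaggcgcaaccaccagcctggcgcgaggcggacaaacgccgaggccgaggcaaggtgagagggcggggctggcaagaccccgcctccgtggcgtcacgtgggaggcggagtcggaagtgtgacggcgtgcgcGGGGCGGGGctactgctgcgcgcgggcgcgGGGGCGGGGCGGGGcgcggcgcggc

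The letters reported here were CAAAGTCCA, CAAAGGTCA or CAAAGTTCA for HNF4, TGTTTAC or TGTTTGC for FOXA, TTGCGCAA, TTGCGTAA or TTGTGCAA for C/EBP, TGACTCA for AP-1 and GGGGCGGGG for SP factors, each on both strands, and TATAAA for the TATA box on the given strand. The FOXA letters of APOA2 began 42 bases before the start and those of VTN 43 bases before it. SEPP1 had HNF4, FOXA and TATA letters that began 74, 45 and 31 bases before the start. In FOXA3 the TATA letters began at 30, and ONECUT1, FTL and EML4 held SP letters, which in EML4 were found at 3 places, 2 of them overlapping. The promoters of APOE, AURKB, GLRX and SCD were also read and held none of these letters, so the printed ones do not stand for all. APOB, FOXA2, NR0B2, FTH1, GPC3 and ITIH2 were not matched to a promoter.

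Over the members as a whole SP letters were slightly more frequent than in other loci. For every other motif reported here the interval of the members held the share of other loci. Of 1008 member loci with 1 symbol, 597 were matched to a promoter, which gave 568 distinct genes. FOXA letters were found in 4.58% of these promoters and in 4.79% of 11803 promoters of other named loci, and HNF4 letters in 1.06% (0.389 to 2.28) and 0.720%. SP letters were found in 26.4% (22.8 to 30.2) against 22.1% (21.3 to 22.8), the TATA letters in 5.81% against 6.67%, AP-1 letters in 2.29% against 3.18%, and C/EBP letters in 0.176% (0.00446 to 0.977) against 0.915%. The share of all 27303 promoters of the same length was 6.05% for FOXA, 0.894% for HNF4, 15.4% for SP, 7.18% for TATA, 4.16% for AP-1 and 0.930% for C/EBP. Among loci with an FPKM of at least 100, SP letters were found in 23.1% (11.1 to 39.3) of 39 member promoters and in 24.5% of 428 others. The median GC content was 64.4% in member promoters and 62.4% in other promoters, and its part in the SP share was not tested. A match of letters is a description and shows no binding.

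The cells carried RNA of all hepatocyte markers listed, among them the fetal AFP, and of most bile duct markers listed. All 8 hepatocyte markers, which were ALB, AFP, APOA1, APOB, TTR, FGB, SERPINA1 and HNF4A, had an FPKM of at least 56.6, and ALB had 9933 and 10088 in the 2 value columns of the RNA table. The nature of these columns is not stated; they are called run 1 and run 2, and a pair of FPKM values below gives run 1 first. Of the marker lists of other cells, 1 of 10 neuronal, 3 of 10 blood, 1 of 8 muscle, 2 of 9 mesenchymal and endothelial, 2 of 6 pluripotency and 3 of 4 bile duct genes had an FPKM of at least 1. The highest of these was LYZ, with an FPKM of 1173. Of the bile duct genes, KRT19, EPCAM and SOX9 had 110, 96.9 and 39.8 as means, and KRT7 had 0.109. PTPRC, CD3E, GATA1, MYOD1, MYOG and NEUROD1 were listed at 0 in both runs.

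The number of peaks fell off smoothly across the stretches. A single peak made up 3438 stretches (19.2%), the median was 4 peaks and the maximum 46. The richest 300 held 6682 peaks, which is 6.97% (6.81 to 7.13) of all peaks, with a median of 21 and quartiles of 19 and 24. At the limit, ranks 300 and 301 both had 18 peaks and differed in length, with 20.3 kb each (20.281 and 20.333 kb). Of the 88 stretches with 18 peaks, 41 were inside and 47 outside, so the limit cut through a tie. The point at which the ranked curve of peak numbers rises more steeply than its diagonal would have kept 1752 stretches, down to 11 peaks, so 300 is a stricter limit than that one.

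**Figure D1:**
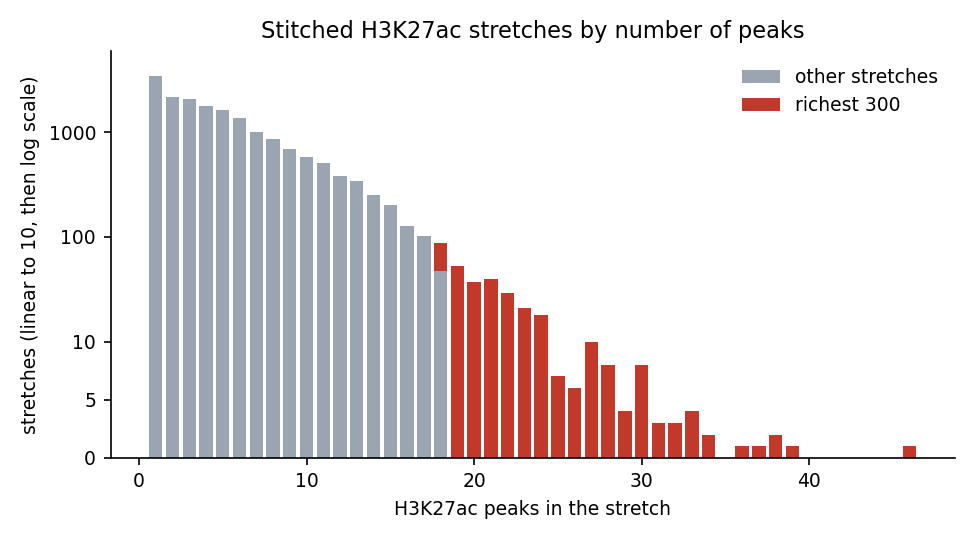
Number of stitched H3K27ac stretches (vertical axis, linear to 10 and logarithmic above) for each number of peaks per stretch (horizontal axis), with the richest 300 in red and all others in grey. The counts fell without a gap through the limit at 18 peaks, and a single stretch stood apart with 46.

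Length and filling follow in part from the ranking by peak number and are given as a description. Their median length was 30.3 kb (3.29 to 84.8 kb), against 1.28 kb for the others. Inside them 13.6% (13.3 to 14.0) of the nucleosome positions were acetylated, against 17.3% in ranks 301 to 1000 and 24.0% in all other stretches. The share ran from 5.80% to 100% between single stretches, with a median of 14.3%. A ranking by peak number thus joins short, filled blocks and long rows of small groups. Acetylated positions that follow each other without a bare called one form a run. Called positions can overlap or lie apart, so a run is not an unbroken row of separate nucleosomes. The 300 stretches held 2391 runs with a mean of 2.79 positions, against 2.42 elsewhere. Runs of at least 4 positions held 54.4% of the acetylated positions in the 300 and 48.1% in the others.

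The longest run of all stretches was 19 positions, at the start of CDK6, a cyclin-dependent kinase of the early cell cycle. It filled the stretch of rank 207 (chr7:92461981-92466424 in hg19), in which all 19 positions carried H3K27ac and H3K9ac and 18 carried H3K4me3. CDK6 had an FPKM of 26.9 in both runs. A run of 17 lay at IRX3, a homeobox gene (rank 174), and 1 of 16 inside ST6GAL1, a sialyltransferase of the liver (rank 208), with an FPKM of 62.7 and 62.1. A run of 15 ended at the start of ONECUT1 (rank 101), where 22 of 24 positions were acetylated over 5.87 kb. The stretch of rank 260 was the shortest of the 300, with 18 peaks among 22 positions over 3.29 kb (chr2:106898639-106901929), and none of the 18 carried H3K9ac or H3K4me3. Its nearest named locus was UXS1, 87.7 kb away. These loci were chosen after their values were seen.

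**Figure D2:**
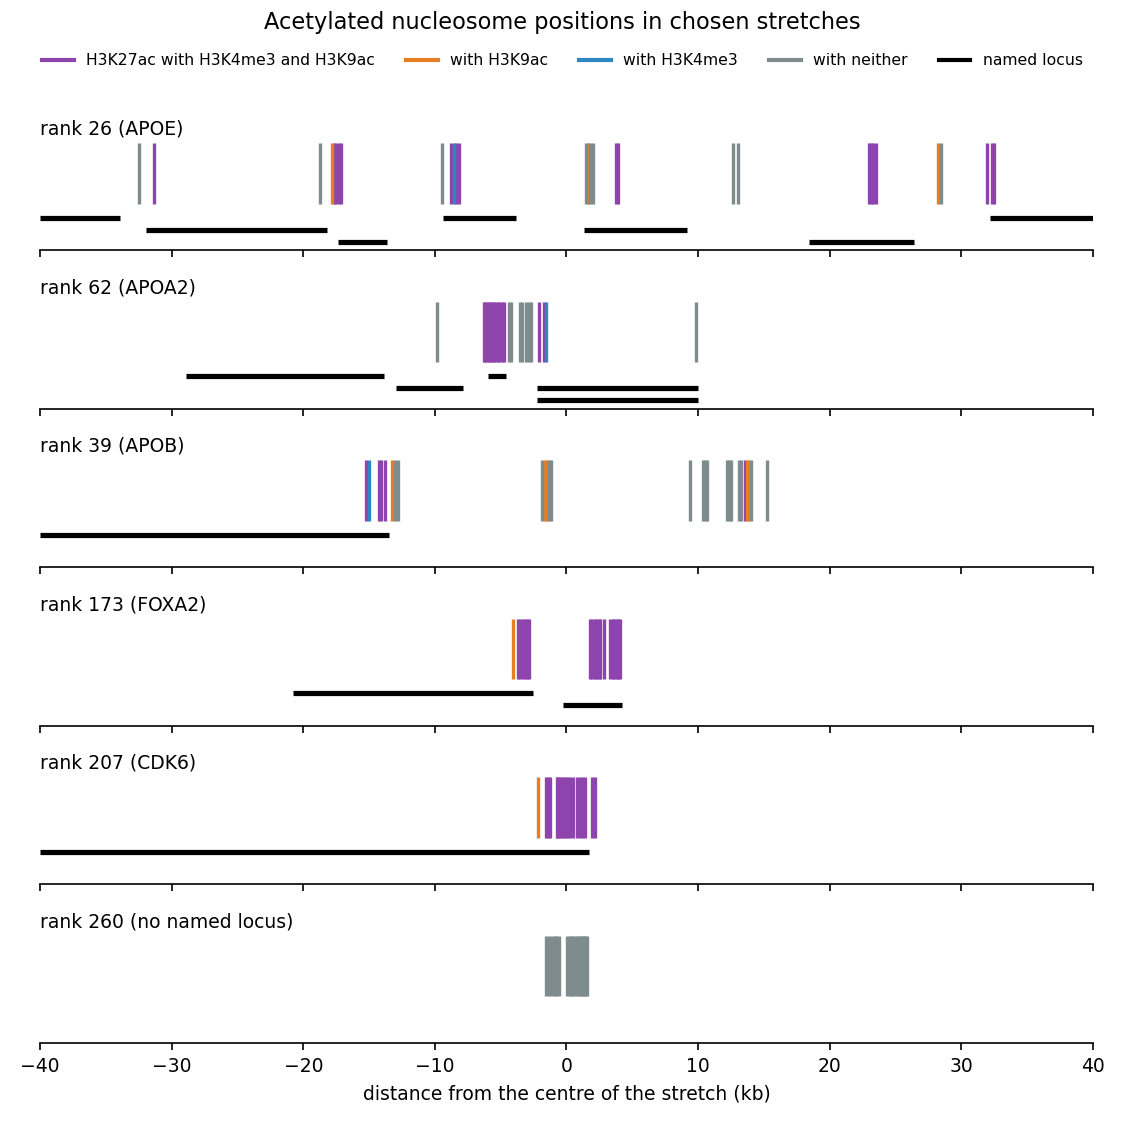
Acetylated nucleosome positions of 6 stretches, placed by distance from the centre of the stretch in kb (horizontal axis), coloured by the other activation marks they carried, with named loci as black bars below, cut off at the edge of the plot. The CDK6 stretch was a single run of 19 called positions, 18 of them with H3K4me3 and all with H3K9ac. The stretch of rank 260 was a block with neither, and the APOE stretch a row of small groups over 65.1 kb.

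At the acetylated positions of the richest 300, H3K4me3 was less frequent than elsewhere. It was found at 36.6% (35.4 to 37.7) of the 6682 positions, against 49.6% (49.3 to 49.95) of the 89204 positions in other stretches and 48.7% of all. H3K9ac was found at 51.0% (49.8 to 52.2), against 53.9% (53.6 to 54.2) in other stretches and 53.7% of all. The combination of H3K9ac without H3K4me3 was at 17.2% (16.3 to 18.1) of the positions in the 300 and at 8.34% (8.16 to 8.52) in the others. Both marks together were at 33.8% against 45.5%, and neither at 46.2% against 42.0%. Ranks 301 to 1000 were closer to the 300 than to the rest, with H3K4me3 at 35% (34.1 to 35.9) and H3K9ac at 45.4% (44.5 to 46.4). The share of H3K9ac without H3K4me3 was 19.1% in ranks 1 to 100, 16.4% in ranks 101 to 200, 15.3% in ranks 201 to 300, 13.8% in ranks 301 to 1000 and 7.59% below that.

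**Figure D3:**
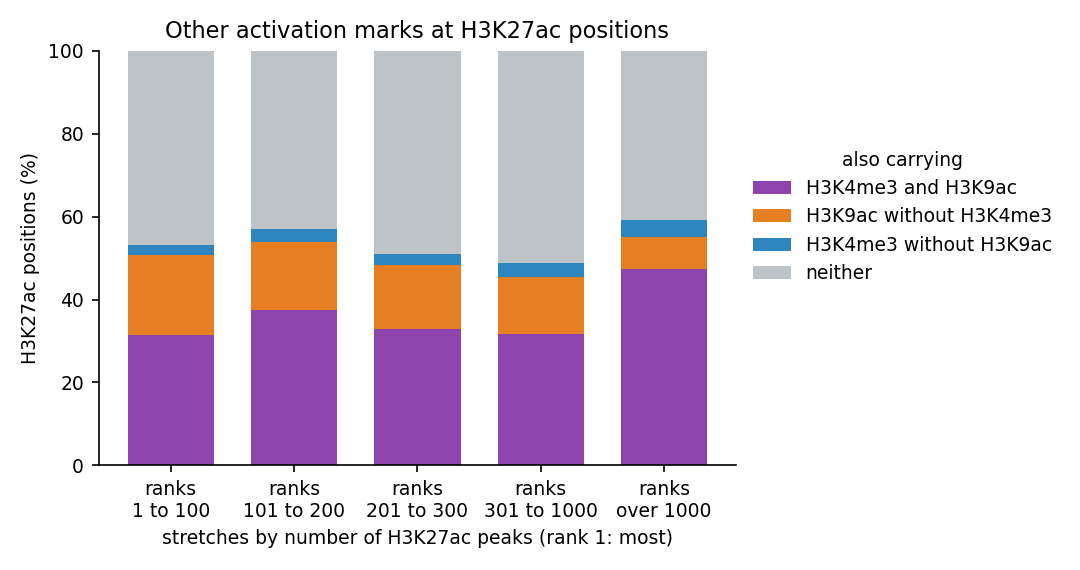
Share of H3K27ac positions in percent (vertical axis, stacked from 0) that also carried H3K4me3 and H3K9ac, 1 of them or neither, in 5 classes of stretches by rank (horizontal axis). H3K9ac without H3K4me3 made up 19.1% of the positions in ranks 1 to 100 and 7.59% in ranks over 1000.

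Position relative to the listed ends of loci moved with these shares. Where loci share coordinates only the outer ends are listed, so gene starts between them count as farther away. Within 2 kb of either end of a named locus lay 22.3% (21.3 to 23.3) of the acetylated positions of the 300, 22.5% of those in ranks 301 to 1000 and 34.97% (34.7 to 35.3) of those in all other stretches. Near the ends, H3K4me3 was at 72.6% (70.2 to 74.8) of the positions in the 300 and at 86.5% in the others. Farther away it was at 26.2% (25.03 to 27.4) against 29.8% (29.4 to 30.2). H3K9ac turned with the distance: it was at 79.1% against 85.4% near the ends, lower in the 300, and at 42.9% (41.5 to 44.3) against 36.9% (36.6 to 37.3) farther away, higher in the 300. The lower H3K9ac share of the 300 therefore held only near locus ends. In ranks 301 to 1000 H3K4me3 was at 74.7% near the ends and at 23.5% (22.6 to 24.4) farther away. H3K9ac was there at 77.0% and 36.3% (35.3 to 37.3). Those ranks thus shared the lower shares of the 300, but not the higher H3K9ac share farther away.

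The repressive marks were nearly missing from acetylated positions, in the 300 stretches and in the others alike. H3K27me3 was at 0 of the 6682 acetylated positions of the 300 (up to 0.0552%), against 0.0303% in other stretches. H3K9me3 was at 7, or 0.105% (0.0421 to 0.216), against 0.212%. Both intervals held the share in other stretches. At any position of the 300, acetylated or not, there were 3 H3K27me3 and 22 H3K9me3 peaks, in 3 and 19 stretches. Single stretches differed widely in the activation marks. The share with H3K4me3 had quartiles of 9.52% and 57.9%, and 59 stretches had none, while 5 had no H3K9ac. When H3K9ac and H3K4me3 peaks were stitched and ranked in the same way, 101 of the 300 overlapped 1 of the 300 richest H3K9ac stretches and 74 overlapped 1 of the 300 richest H3K4me3 stretches. Among ranks 301 to 1000 these numbers were 102 and 86 of 700.

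Loci near the 300 stretches were expressed more often than named loci as a whole. Of the 1084 members, 760 had an FPKM of at least 1, which is 70.1% (67.3 to 72.8) against 51.3% of all named loci. An FPKM under 0.1 in both runs was found for 170 members, or 15.7% (13.6 to 17.99), against 35% of all. The median FPKM was 7.38 (5.99 to 8.37), against 1.07 for the other named loci. The 1796 other loci near ranks 301 to 1000 were alike, with 71.8% (69.6 to 73.8) expressed and a median of 7.79. Loci near a lower stretch only were expressed in 62.8%, and the 4668 near no stretch in 3.23%. An FPKM of at least 10 was reached by 42.4% of members against 28.5% of all, and an FPKM of at least 100 by 70 members, or 6.46% against 3.27%. In RNA from a whole culture, fewer expressing cells and less RNA per cell cannot be told apart. Among the 1084, 613 share their coordinates with another locus and 76 carry several symbols, so their FPKM is less certain; among the 440 with their own coordinates and 1 symbol, 70.5% were expressed. Of the 760 expressed members, 7 differed by more than 2-fold between the runs.

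Expression differed with contact to a stretch more than with the rank of the stretch. The 642 loci that overlapped a stretch were expressed in 77.1% (73.7 to 80.3) and had a median FPKM of 9.51, the 74 loci within 10 kb in 60.8% (48.8 to 72.0), and the 368 loci from 10 to 50 kb away in 59.8% (54.6 to 64.8) with a median of 3.49. Loci that overlapped a stretch of rank 301 to 1000 were expressed in 78.7% (76.0 to 81.2) with a median FPKM of 10.1, and those that overlapped only a lower stretch in 78.6% (77.8 to 79.3) with a median of 8.04. Of the 8437 loci that overlapped no stretch, 7.31% were expressed. The share of expressed loci therefore did not differ between the richest 300 and stretches of lower rank by more than the counting intervals. At an FPKM of at least 100 the shares were 8.10% for the 300, 8.004% for ranks 301 to 1000 and 4.81% for lower ranks.

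**Figure D4:**
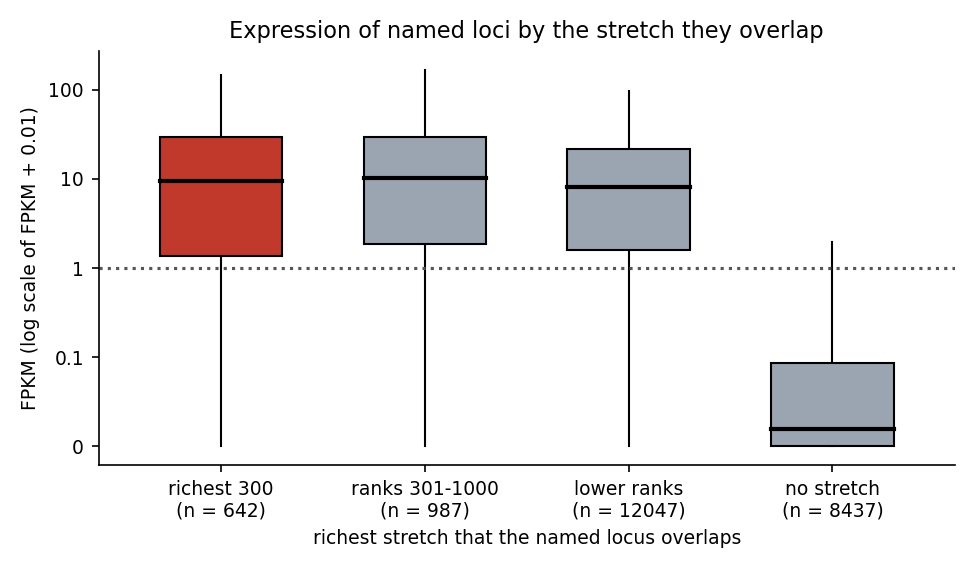
FPKM (vertical axis, logarithmic scale of FPKM + 0.01) of named loci grouped by the richest stretch they overlapped (horizontal axis), with boxes from the 25th to the 75th percentile, a bar at the median and whiskers from the 5th to the 95th percentile. The medians were 9.51, 10.1 and 8.04 for loci in a stretch and 0.00583 for loci in none, and the dotted line marks an FPKM of 1.

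The same held for loci with their own coordinates and a known strand, of which 8505 could be used, grouped by the stretch that holds their start. With no stretch at the start 34.5% of 5906 loci were expressed. A start just beside a stretch counted as having none, so this group can hold loci with acetylation close to the start. Of all named loci that overlapped no stretch, 7.31% were expressed. Only 8 loci had their start in a stretch of 1 peak. With a stretch of 2 to 4 peaks the share was 94.0% (92.0 to 95.6) and the median FPKM 11.5, with 5 to 9 peaks 97.0% (95.9 to 97.9) and 16.2, with 10 to 17 peaks 95.5% (93.4 to 97.1) and 18.03, and with 18 or more peaks 93.5% (87.7 to 97.2) and 18.4. Across the 642 loci that overlapped the 300 stretches, Spearman's rho of FPKM with the number of peaks was 0.000527. It was 0.152 across the 2599 loci with a start in any stretch. Both are descriptions across loci, which share the same libraries and in part the same stretch.

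The highest locus of each of the 15 richest stretches had an FPKM of 2.66 to 138, where a named locus was near. The richest stretch of all (46 peaks over 84.8 kb, chr3:99590969-99675794) lay in a region of 5 loci with shared coordinates, in which C3orf26 had an FPKM of 29.4 and 44.9. COL8A1, a collagen gene of the same coordinates, had 0.143 and 0.0716. Of its 46 peaks 8 carried H3K4me3. The second (39 peaks, chr17:8055524-8127284) held AURKB, the kinase Aurora B of mitosis, with an FPKM of 27.8 and 28.0. There 30 of the 39 peaks carried H3K4me3, so these neighbours in rank had opposite makeup.

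EML4, a microtubule-binding protein, overlapped the third stretch (38 peaks, chr2:42332839-42400884) with an FPKM of 139 and 137. GLRX, the glutaredoxin that reduces mixed disulfides with glutathione, had 72.2 and 70.7 (rank 4). HIGD1A, a protein of the inner mitochondrial membrane, had 127 and 130 (rank 7). MMD had 116 and 114 (rank 11). These 3 and EML4 were well above the median of the members, and both runs gave the same order.

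Other loci of the top 15 were MRPL20 of the mitochondrial ribosome (63.6 and 60.5, rank 5), HEXIM1, an inhibitor of the elongation factor P-TEFb (20.1 and 19.8, rank 6), and the row of GGT1 and SNRPD3, a glutathione-cleaving enzyme and a core spliceosome protein (84.9 and 83.1, rank 8). TTC39B had 7.95 and 8.79 (rank 10), LPIN2, a phosphatidate phosphatase, 18.4 and 18.7 (rank 12), TMEM49, an autophagy protein, 71.8 and 70.7 (rank 13), and the row of INO80B and WBP1, with a subunit of a chromatin remodeller, 44.3 and 39.1 (rank 14). GNG7, a G protein subunit, was the lowest with 2.99 and 2.33 (rank 15). Rank 9 (33 peaks, chr2:43202159-43249524) had no named locus within 50 kb, and the nearest, HAAO, was 171 kb away.

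None of the 10 members with the highest FPKM belonged to the 25 richest stretches. FTL, the ferritin light chain, had an FPKM of 8005 and 8119 and overlapped rank 222. APOA2, an apolipoprotein of high density lipoprotein, had 5095 and 5323 (rank 62, chr1:161188081-161207954). FTH1, the ferritin heavy chain, had 1838 and 1787 (rank 113). Both ferritin genes share their coordinates with another locus.

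APOB, the structural protein of very low and low density lipoprotein, had an FPKM of 1237 and 1265 and overlapped rank 39 (chr2:21265119-21295704), which reached from its start end outward. APOE, a ligand of lipoprotein receptors, had 1161 and 1143 in rank 26 (chr19:45393869-45458989). SEPP1, the selenium transport protein of plasma, had 1146 and 1187 in rank 37, at coordinates shared by 5 loci. GPC3, a heparan sulfate proteoglycan of fetal liver and liver tumours, had 1310 and 1352 in rank 159. The ribosomal protein genes RPL31 (1571 and 1655, rank 162) and RPLP2 (1156 and 1202, rank 166) complete these loci. MIR3650 was listed at 0 in run 1 and at 7706 in run 2 (rank 187), so 1 run decides its place.

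Loci with and without detected RNA shared the richest stretches. The first 5 loci with an FPKM under 0.1 in both runs were MIR3921 and MIR548G in rank 1, MIR3676 in rank 2, C2orf81 in rank 14 and GUCY2GP in rank 17. C2orf81 had 0.0509 and 0.0561, and the others were listed at 0 in both runs. The loci named MIR are microRNA genes, and another of them, MIR3650, was at 0 in run 1 and at 7706 in run 2. A 0 at such a locus therefore does not show that it is silent. Of the 100 highest named loci 10 were members, and of the 1000 highest 94 (9.4%), against 4.9% of all.

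Liver plasma proteins were near a rich stretch in 5 of 21 cases, or 23.8% (8.22 to 47.2), against 4.9% of named loci. This list and those that follow were chosen with earlier results of these data known, so their shares are descriptions only. APOE, APOB, APOA2 and VTN overlapped one, with VTN at an FPKM of 44.2 and 44.7 (rank 126). AMBP, the precursor of a plasma carrier and a protease inhibitor, lay 20.5 kb from rank 233 with 763 and 757. All 21 had an FPKM of at least 1. The highest without one was ALB, whose nearest rich stretch (rank 266) was 56.3 kb away. AFP, fetal albumin, followed with 3732 and 3864 at 88.6 kb from the same stretch. APOH, AHSG and APOA1 had 2073, 1473 and 1427 as means, and lay at least 406 kb from the 300. With gaps of at most 5 kb in the stitching the share fell to 9.52% (1.17 to 30.4) against 3.33% of named loci, and with 25 kb it was 19.05% (5.45 to 41.9) against 7.97%, so in both the interval held the share of named loci. With the richest 1000 stretches the count was 8 of 21 against 13% of named loci, and 20 of 21 overlapped a stretch of any size against 61.8%. These shares are of all named loci, expressed or not. Of the 11354 named loci with an FPKM of at least 1, 617 overlapped no stretch, so 20 of 21 is not particular to the list. Of the 724 with an FPKM of at least 100, 70 were near the 300, a share inside the interval of 8.22 to 47.2%.

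Hepatocyte transcription factors gave a like count, 5 of 25, or 20% (6.83 to 40.7), against 4.9% of named loci. Their median FPKM was 14.1. Of the 6297 named loci with an FPKM of at least 10, 460 were near the 300, a share inside that interval. Of the 11354 with an FPKM of at least 1, 760 were near, a share just below it. FOXA2, a pioneer factor of endoderm and liver, had an FPKM of 13.9 and 14.1 in rank 173, where 19 of 20 acetylated positions carried H3K4me3 and 20 carried H3K9ac. FOXA3, its relative, had 14.5 and 13.6 in rank 156. ONECUT1, also known as HNF6, had 4.06 and 3.84 in rank 101. NR0B2, a repressor in bile acid control, had 74.0 and 76.2 in rank 114. XBP1, a factor of the unfolded protein response, had 193 and 191 and lay 9.66 kb from rank 160.

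The count of these factors changed strongly with the limit. Their share was 32% (14.9 to 53.5) against 3.33% of named loci with gaps of at most 5 kb, and 16% (4.54 to 36.1) against 7.97% with 25 kb. Without peaks within 2 kb of a locus end it was 4% (0.101 to 20.4) against 2.68%, so the interval held the share of named loci. None of the 25 was near the richest 100, and 14 of 25 were near the richest 1000, against 13% of named loci. HNF4A (66.6 and 62.7) was reached by the richest 1000, while CEBPA (70.6 and 71.5) was not. HLF, with 75.6 and 75.7, was the highest without a rich stretch and lay 69.7 kb from rank 11. A stretch of any size overlapped 24 of 25. The exception, NR5A2, had 0.273 and 0.399. Of the 11354 named loci with an FPKM of at least 1, 617 overlapped no stretch, so the count of 24 is not particular to these factors.

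For the signalling, metabolic and acetylation lists, the interval of the share near the 300 held the 4.9% of all named loci in every case. ERK feedback inhibitors had 2 of 10 (2.52 to 55.6%), SPRY1 (8.90 and 9.44, rank 293) and ERRFI1 (61.4 and 60.01, 44.1 kb from rank 46). Lipid and sterol genes had 2 of 13 (1.92 to 45.4%), the desaturase SCD (343 and 333, rank 90) and FASN, fatty acid synthase, in a row with CCDC57 (98.3 and 91.3, rank 119). Immediate early genes had 1 of 14 (0.181 to 33.9%), IER2 (13.1 and 13.1, rank 138), and Wnt target genes 1 of 11 (0.230 to 41.3%), TNFRSF19 (35.7 and 33.6, rank 48). The highest without one were IER3, in a row with FLOT1 (89.3 and 85.3), NOTUM (101 and 94.5), DUSP6 and SPRED2 among the feedback inhibitors (14.4 and 19.3 as means) and HMGCS1 (146 and 146). None of 13 acetylation writers, readers and erasers was near (up to 24.7%), although all 13 had an FPKM of at least 1.

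The lists of other cell types had none near the 300, namely 0 of 10 neuronal, 0 of 10 blood, 0 of 8 muscle, 0 of 9 mesenchymal and endothelial, 0 of 6 pluripotency and 0 of 4 bile duct genes. With 10 genes a count of 0 allows a share of up to 30.8%, so these counts do not separate the lists from the 4.9% of named loci. Stretches of any size overlapped 1 of the neuronal, 2 of the blood, 0 of the muscle, 2 of the mesenchymal and endothelial, 1 of the pluripotency and 2 of the bile duct genes, against 61.8% of named loci. Of all named loci 51.3% had an FPKM of at least 1, and every list here except bile duct was below that share.

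Several stretches held a family of neighbouring liver genes, described after their values were seen. The stretch of rank 26 ran from TOMM40, a mitochondrial import pore, past APOE to APOC1 and the row of APOC2 and APOC4, whose FPKM was 434 and 448 for APOC1, 255 and 260 for APOC2 with APOC4, and 53.1 and 49.4 for TOMM40. Of its 30 acetylated positions 18 carried H3K4me3. In rank 62, NR1I3, a nuclear receptor of drug metabolism, lay beside APOA2 with 2.499 and 2.002 at coordinates it shares with TOMM40L. Within 2 kb of the listed start of APOA2 there were 19 acetylated positions, 12 of them with both H3K4me3 and H3K9ac, and the printed FOXA letters of APOA2 lie just before that start. For VTN, with FOXA and HNF4 letters, these numbers were 11 and 2. For ONECUT1 they were 7 and 7, for FOXA3 4 and 4, and for APOE 6 and 4.

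Protease inhibitor genes shared stretches too. SERPINA3 and SERPINA5 (250 and 262, and 193 and 191) overlapped rank 77 at the same coordinates. SERPINF2 (164 and 160) overlapped rank 115, with SERPINF1 (386 and 383) 18.3 kb away. ITIH2, an inhibitor heavy chain bound to hyaluronan, had 489 and 493 in rank 27, while its neighbour ITIH5 had 3.74 and 2.75 at 18.9 kb. The aldo-keto reductases AKR1C2 (172 and 172), AKR1C3 (150 and 144) and AKR1C1 (448 and 419) were within 24.6 kb of rank 254, and reads may be split between these near-identical genes. ASGR1, a subunit of the hepatocyte asialoglycoprotein receptor, had 181 and 171 in rank 220.

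Within gene clusters, FPKM differed between neighbours, also between loci that overlapped the same stretch. HOXD1 overlapped rank 75 with an FPKM of 9.98 and 9.54. The row of HOXD3 and HOXD4, at the same coordinates, was under an FPKM of 1 in both runs, and HOXD8, HOXD12 and HOXD13, 8.04 to 44.8 kb away, were listed at 0 in both runs. HOXA2, HOXA3 and HOXA4 overlapped rank 241 with means of 1.43, 2.01 and 2.92, as did HOXA6, listed at 0 in both runs, while HOXA7, HOXA11 and HOXA13, 2.80 to 41.6 kb away, had 0.133, 0.0231 and 0.144. Histone genes lay at ranks 21, 36 and 55. There HIST1H1C, a linker histone, had 17.2 and 21.0, HIST1H4E had 1.78 and 1.36, and HIST1H3A was listed at 0. Histone genes are near-identical copies, so their FPKM values are uncertain.

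For 32 of the 300 stretches no named locus lay within 50 kb, and for 27 more the nearest lay at some distance within 50 kb. The other 241 (80.3%) were overlapped by a named locus, against 78.7% of other stretches. Of the 32, rank 83 lay 60.2 kb from UGT2B15, a glucuronosyltransferase with a mean FPKM of 0.893, rank 243 lay 71.5 kb from GLUL, the glutamine synthetase, with 126, and rank 266 was the stretch near ALB, with H3K9ac at 9 and H3K4me3 at 4 of 18 positions. Rank 9 had H3K9ac at 13 and H3K4me3 at 1 of 33 positions.

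Chromosomes 2, 17 and 20 held more of the 300 than of all stretches. They had 35, 31 and 17, together 83, or 27.7% (22.7 to 33.1), against 15.3% of all stretches, 16.7% of all peaks and 14.2% of all nucleosome positions. Chromosomes 10, 11, 19 and 22 also held more, with 6%, 6.33%, 5.67% and 3.67% of the 300 against 4.64%, 4.58%, 4.57% and 2.26% of all stretches, and chromosomes 3 and 16 did by less than 1 percentage point. The share of its own stretches that were in the 300 was 3.50% on chromosome 20, 3.49% on 17, 2.72% on 22 and 2.55% on 2. HepG2 is known to carry extra copies of several chromosomes, among them 2, 17 and 20 and also 14, which held 3% of the 300 and 3.31% of all stretches. The part of copy number in peak calling was not tested. Without chromosomes 2, 17 and 20, a setting chosen after seeing the data, 68.3% of loci near the richest 300 were expressed and H3K4me3 was at 35.3% of the acetylated positions.

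**Figure D5:**
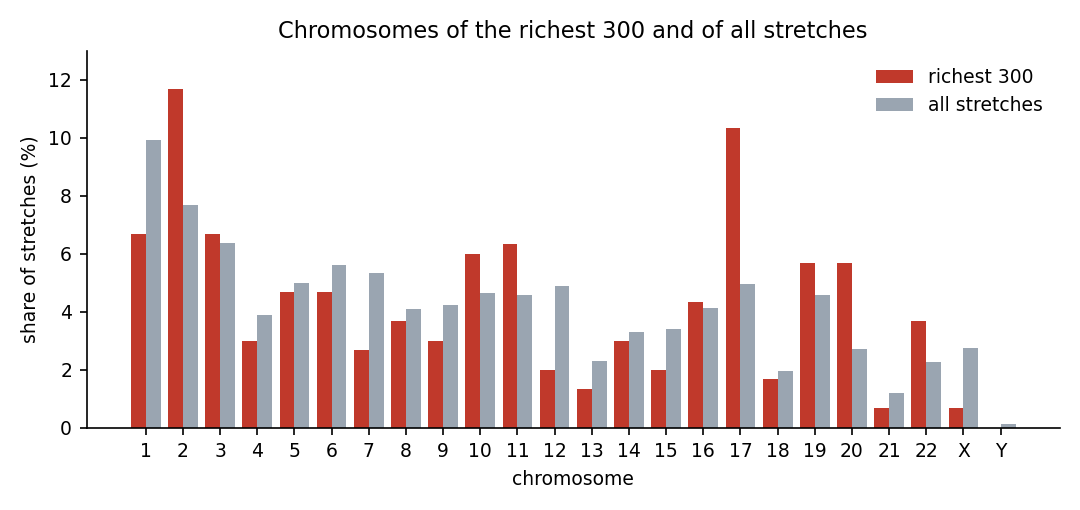
Share in percent (vertical axis, from 0) of the richest 300 stretches (red) and of all stretches (grey) on each chromosome (horizontal axis). Chromosomes 2, 17 and 20 held 27.7% of the 300 and 15.3% of all stretches.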

How the data were processed

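HepG2 was profiled in 7 samples, 1 per assay. The authors deposited nucleosome positions and, per mark, peak coordinates called there against input. The limits were 0.01 for P and false discovery rate and 4-fold for enrichment. Read counts per peak are not given, and the study reported only approximate totals of aligned reads for the nucleosome and ChIP libraries. Coordinates are hg19, aligned with BWA, per the submitters' processing notes. The authors deposited RNA-Seq as FPKM in 2 columns (TopHat2 2.1.0 and HOMER 4.7 are named in the notes), with the fold changes and p-values of their own comparison, which were not used. Whether the columns are separate cultures is not stated, and their mean was used.

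Peaks were stitched over gaps of at most 12500 bp and ranked by number, ties by shorter length. Loci with a symbol on chromosomes 1 to 22, X and Y were assigned by edge distance, and 6 with a failed status were left out. A peak of another mark counted where it sat on the same nucleosome position. RefSeq promoters (GRCh38.p14) gave sequence and strand only. Some items are not reported here.

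Named were the highest locus of each of the 15 richest stretches, the 10 highest members, the first 5 overlapping loci with an FPKM under 0.1 in both runs and members of 13 lists. The members and lists were chosen with earlier results of these data known. Alternatives were other gaps, limits, reaches, expression limits, single runs, loci with own coordinates and ranking by length. Stitching and ranking were tested on simulated data. The tools were Python 3.11.15 with pandas 2.3.3, numpy 2.4.6, matplotlib 3.10.9 and scipy 1.17.1.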

Additional observations from a re-analysis of the deposited data

How the results depend on the processing

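Of 77 recomputed values 31 moved beyond their interval and 2 more turned direction against the values outside the stretches; expression stayed above the other loci in 32 of 32, and H3K4me3 below the other stretches in 9 of 9. With gaps of at most 5 kb, the share of peaks in the 300 was 5.05%, H3K9ac 48.0% and H3K4me3 32.8%, and with 25 kb the first was 12.4% and H3K4me3 40.1%. Ranked by length, the share of peaks was 6.05% and H3K9ac 48.2%. Without peaks within 2 kb of a locus end, the share of peaks was 9.18%, H3K9ac 38.0% (37.4% elsewhere, which turns its direction, in 1 of 9 values) and H3K4me3 19.8%. Hepatocyte transcription factors were then at 4% (0.101 to 20.4) against 2.68% of named loci. For the 100 richest, the share of peaks was 2.84%, expressed loci 65.4%, the median FPKM 4.32, H3K4me3 34.0% and transcription factors 0% (1.92% of named loci, which turns the direction), and for the 1000 richest the share of peaks was 18.2%, H3K9ac 47.6% and transcription factors 56%. Expressed loci and their median FPKM were 77.1% and 9.51 for overlapping loci, 75.4% and 9.04 within 10 kb, 66.9% and 5.97 within 100 kb, and 77.7% and 9.14 without loci at 0. An FPKM limit of 0.1 gave 83.3% and one of 5 gave 55.3%. With any overlap as a match, H3K9ac was 54.8% and H3K4me3 38.0%. Without chromosomes 2, 17 and 20, added after seeing the data, H3K9ac was 49.7% and H3K4me3 35.3%. Where a setting changes the stretches or loci counted, its construction is the change, and no other cause was tested. No paired analysis was possible because each assay has 1 sample.

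The lists hold no peak height or read count, so a stricter calling limit could not be tried.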

Other observations

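Loci without a gene symbol were not among the members. Of 6728 such loci, 181 overlapped the 300 stretches, and 27 of these (14.9%) had an FPKM of at least 1, against 6.63% of all unnamed loci. At the stretch of rank 103, which has no named locus within 50 kb, an unnamed locus had 4.45 FPKM in the first run and 3.99 in the other, and the nearest named locus was FOXQ1, 80.7 kb away. At rank 106 another had 1.23 and 1.29. An unnamed locus of rank 224 had 258 in run 1 and was listed at 0 in run 2, so 1 run decides its value. These loci were chosen after their values were seen.

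By length, the share of acetylated positions with H3K4me3 was 32.0% (30.2 to 33.9) in the 100 longest of the 300 stretches, 40.6% (38.5 to 42.7) in the middle 100 and 38.0% (35.8 to 40.2) in the 100 shortest. The shares of expressed loci were 70.7%, 66.7% and 74.3%.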
